A study of Mus musculus with 6 samples.

Results

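Syce1, Sycp1, Sycp3, Dmc1, Stag3 and Hormad1, 6 genes that build or serve the meiotic chromosome axis, were followed in the DNA methylation of mouse quadriceps muscle. Every deposited row keyed by a RefSeq transcript of one of these 6 genes was taken, which gave 6 gene regions of 3000 bases with 69 cytosine positions, out of 10755 regions and 268725 positions in all. The study compared C57BL/6 mice that ran on a motorized treadmill over 4 weeks of training (exercised, 3 samples, DNA taken 3 hours after the last bout) with sedentary C57BL/6 mice (3 samples). Whole quadriceps DNA was read by reduced representation bisulfite sequencing, in which fragments cut at CpG-containing sites are treated with bisulfite, so that unmethylated cytosines are read as T and methylated ones as C. A methylation level is therefore the share of reads that kept C, over all cells and both alleles of a sample. Whether the 3 samples of a group were 3 animals is not given in the labels, so a p-value speaks only of sample-to-sample spread, which may be technical. RNA was not measured, so silencing of the 6 genes could not be checked, and they are described here by their methylation alone.

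In meiosis, homologous chromosomes are held side by side by the synaptonemal complex and exchange DNA. Sycp3 builds the lateral elements of this complex, Sycp1 its transverse filaments and Syce1 its central element. Stag3 is a subunit of the meiotic cohesin ring, Hormad1 a HORMA-domain protein that marks unsynapsed axes, and Dmc1 the meiotic recombinase. These genes are used in germ cells and are normally off in muscle, and for many germline genes with CpG-rich promoters DNA methylation is part of the known repression in body cells.

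The distance of each cytosine from its gene start was read from the placement of the regions. The spacing of the listed positions was set against the promoter windows of RefSeq (GRCm38.p6, 250 bases before to 50 after each start). Of the regions compared, 2692 of plus-strand and 2284 of minus-strand genes, most gave no single best placement. A single best placement was found for 986 and 806. In 747 (75.8%) and 619 (76.8%) of these the region ran from 2000 bases before the start to 999 after it, and the next most common placement held 7 and 5 regions. Distances below use this placement for all regions, with the first transcribed base as 0. For Hormad1 all 5 listed positions, and for Sycp1 7 of 18, fell inside the RefSeq window and on CpGs. The Syce1, Sycp3 and Stag3 positions lay outside their windows, so the placement was not checked for these genes. For Dmc1 10 positions should lie inside and only 3 met a CpG, so the start behind its deposited region may differ from that of the RefSeq window and its distances are approximate.

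The Hormad1 and Sycp1 windows are printed because the measured cytosines lie in them, 5′ to 3′ on the strand of the gene, with the measured CpGs in capitals (Hormad1 chr3:95559427-95559726, plus strand; Sycp1 chr3:102936051-102936350, minus strand; both GRCm38.p6).
Hormad1: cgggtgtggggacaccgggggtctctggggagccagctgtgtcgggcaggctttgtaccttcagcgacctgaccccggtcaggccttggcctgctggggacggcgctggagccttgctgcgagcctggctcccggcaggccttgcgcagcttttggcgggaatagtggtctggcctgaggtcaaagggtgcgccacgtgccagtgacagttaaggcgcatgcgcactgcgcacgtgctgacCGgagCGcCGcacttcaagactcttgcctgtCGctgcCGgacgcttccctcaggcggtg
Sycp1: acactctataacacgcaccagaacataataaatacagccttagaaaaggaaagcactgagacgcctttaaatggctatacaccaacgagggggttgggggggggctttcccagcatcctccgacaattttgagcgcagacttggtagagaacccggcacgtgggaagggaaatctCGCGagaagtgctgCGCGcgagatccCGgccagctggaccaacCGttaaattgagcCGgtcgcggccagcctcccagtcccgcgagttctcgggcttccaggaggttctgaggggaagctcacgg
The Hormad1 CpGs span the gene start, from 8 bases before it to 29 after it. Those of Sycp1 in the window lie from 75 to 19 bases before the start.

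The regions split into a highly methylated group of 4 and a less methylated group of 2. Hormad1 (chromosome 3, 95361599 to 95364598, build mm9 as for all regions) stood at 94.6%, 98.5% and 97.4% in the exercised and 97.2%, 95.9% and 98.0% in the sedentary samples. Sycp1 (chromosome 3, 102739024 to 102742023) stood at 96.0%, 95.2% and 96.3% against 94.9%, 95.02% and 90.8%. Nearly every read was methylated in every sample of both regions, and the lowest value was that of Sycp1 in sedentary sample 3.

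Syce1 (chromosome 7, 147972754 to 147975753) stood at 88.0%, 88.0% and 85.2% in the exercised and 95.6%, 88.7% and 93.8% in the sedentary samples. Sycp3 (chromosome 10, 87920332 to 87923331) stood at 88.4%, 92.6% and 86.3% against 91.5%, 82.6% and 92.1%. The central element gene had its 3 lowest values in the exercised samples, while for the lateral element gene the groups overlapped, with sedentary sample 2 lowest.

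Stag3 (chromosome 5, 138719737 to 138722736) stood at 43.3%, 36.4% and 33.9% in the exercised and 40.9%, 36.3% and 32.6% in the sedentary samples. Dmc1 (chromosome 15, 79434515 to 79437514) stood at 23.1%, 26.0% and 23.5% against 21.8%, 25.3% and 28.9%. The groups overlapped for both genes. Counting error at the depth of a region gave 95% Wilson intervals between 2.84 and 9.57 points wide per sample. These cover counting error only, and since neighbouring positions share reads they are too narrow for a region.

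**Figure D1:**
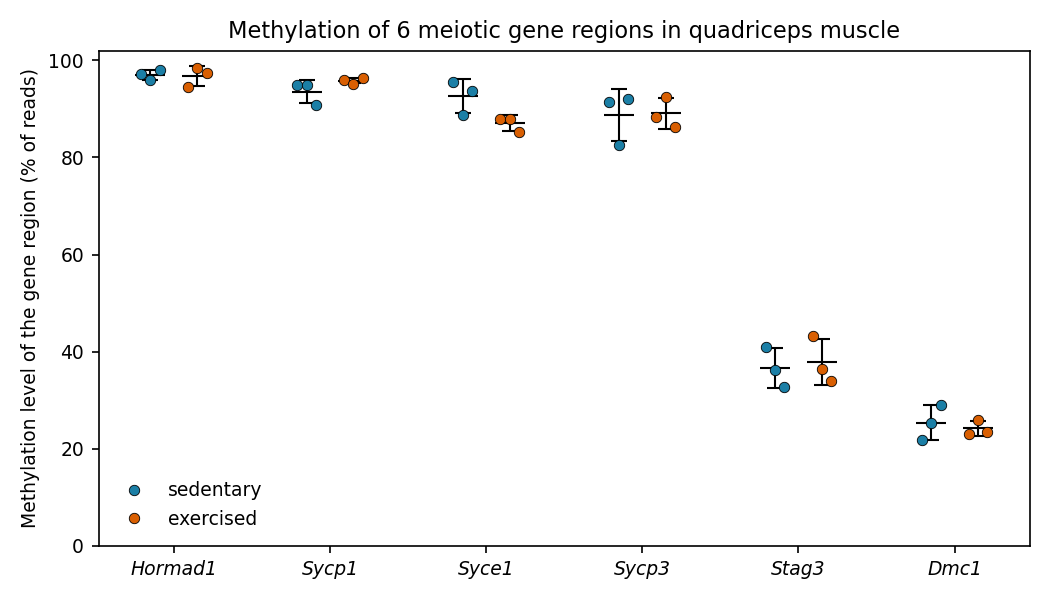
Methylation level (percent of reads, y axis) of each gene region in the 3 sedentary (blue) and 3 exercised (orange) samples; points are samples and bars the mean and SD. Hormad1, Sycp1, Syce1 and Sycp3 lie between 82.6% and 98.5%, Stag3 and Dmc1 between 21.8% and 43.3%.

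In order of the mean over the 6 samples the levels were 96.9% for Hormad1, 94.7% for Sycp1, 89.9% for Syce1, 88.9% for Sycp3, 37.2% for Stag3 and 24.8% for Dmc1. The sample ranges of neighbours overlapped among the first 4, and did not overlap between Sycp3 and Stag3 or between Stag3 and Dmc1. Over the 10021 regions with at least 3 positions the median level was 22.0%, and 161 regions (1.61%) stood at 80% or more. Only 15 regions stood above Hormad1, 34 above Sycp1, 86 above Syce1 and 94 above Sycp3, against 1221 above Stag3 and 3763 above Dmc1. The members were chosen with earlier results of these data known, so this order is a description.

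**Figure D2:**
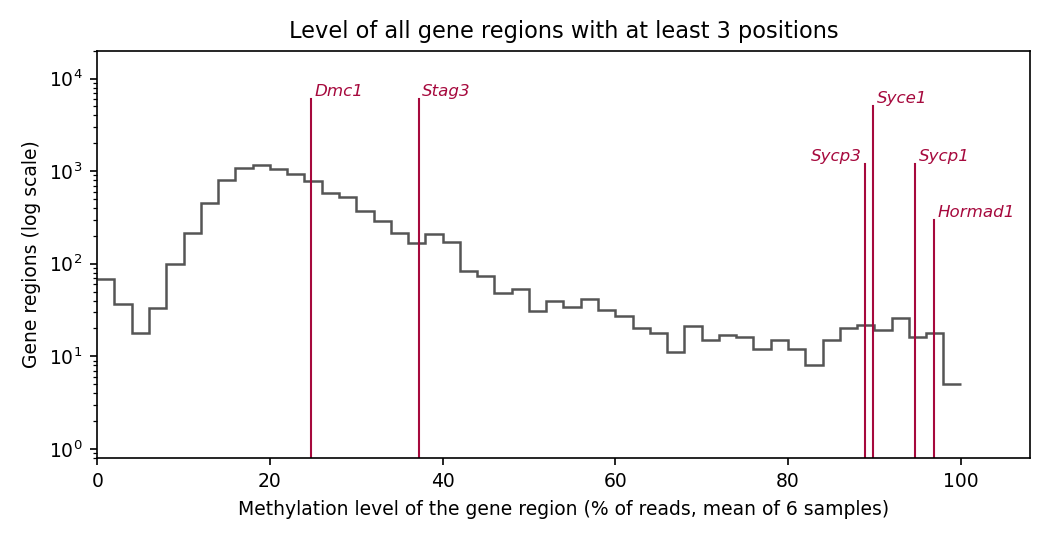
Number of gene regions (log scale, y axis) in each 2-point step of methylation level (x axis, percent of reads, mean of 6 samples) for the 10021 regions with at least 3 positions; red lines mark the 6 genes. Most regions lie around 22.0%, and Hormad1, Sycp1, Syce1 and Sycp3 stand in the small group at 80% or more.

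Each region was also compared with others over the same distances from the start, with the common placement taken for all. Over the bases covered in Hormad1, from -8 to 29, all 1412 other regions with at least 3 positions there had a lower level, and their median was 17.2%. Between bases 181 and 218, where Syce1 was read, 1484 of 1486 other regions lay below it, and between bases 85 and 150 2126 of 2129 lay below Sycp3. For Sycp1, with positions from base -75 to 284, the count was 5799 of 5806. Sycp1 had no listed cytosine between bases -19 and 216, where other regions could have some. Dmc1 lay above 2582 of 3741 regions (69.0%) and Stag3 above 1164 of 1456 (79.9%) over their own stretches.

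By rule, the region of another gene with at least 10 positions and the nearest level over the 6 samples was named for 5 of the members. This was Pabpc6 for Hormad1 and Sycp1 (mean absolute difference of 2.09 and 2.02 points), Hsf5 for Syce1 and Sycp3 (3.40 and 3.33 points) and Txnrd3 for Dmc1 (0.812 points).

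Within the 4 highly methylated regions, 26 of 35 positions had a mean level above 90% and 0 were under 10%. The 5 Hormad1 cytosines lay within 38 bases and all exceeded 90%. Syce1 was also read over a stretch of 38 bases, 7 cytosines with 22 to 61 reads per sample, downstream of the start. The 7 positions had nearly equal read numbers within a sample and largely share their reads. Of these, 5 were above 90%, while the cytosine 181 bases after the start was intermediate, at 82.1%, 56.4% and 47.4% in the exercised and 75%, 43.1% and 68.2% in the sedentary samples. The Sycp1 positions had the longest span of these regions, 360 bases on both sides of the start, with 14 of 18 above 90%. They lay in separate clusters, from base -75 to -19 and from base 216 to 284. No cytosine was listed between the clusters, so the start itself was not read. In Sycp3, 2 of 5 positions exceeded 90% and the other 3 were between 10% and 90%.

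Dmc1 and Stag3 held a different pattern, in which nearly unmethylated and fully methylated cytosines lay side by side. Of the 34 positions in these 2 regions, 17 were under 10% and 6 above 90%. In Dmc1 10 of 20 positions were under 10%, and the cytosines 20, 57 and 168 bases after the start were above 90%. At base 20 every read was methylated in all 6 samples, and at the adjacent base 19 the mean level was 14.8%. Bases 58 and 57 stood at 25.4% and 99.2%. Adjacent listed positions were taken as the 2 strands of 1 CpG, which was not checked against the sequence for these pairs. Among the 10 such pairs in the 6 regions, 3 differed by over 50 points, 2 in Dmc1 and 1 in Stag3, where bases -819 and -818 stood at 23.9% and 99.8%. Over all regions 18009 of 89436 pairs (20.1%) differed by over 50 points, so this strand difference was not confined to the meiotic genes.

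Positions at 10% or more whose neighbours within 100 bases were mostly under 10% are called stand-alone here. Dmc1 held 8 and Stag3 1, and the 4 highly methylated regions held 0. Of all 268725 positions 83230 stood at 10% or more, and 65561 of these were stand-alone. Such positions were therefore common over all regions and not a trait of Dmc1. Without stand-alone positions Dmc1 stood at 2.18%, 9.52% and 6.41% in the exercised and 4.11%, 6.32% and 9.35% in the sedentary samples, over 12 positions. Since only positions at 10% or more are left out, a lower remainder follows from the definition. Stag3 remained at 36.3% ± 5.22 against 34.4% ± 4.65 (SD, n = 3 each) over 13 positions.

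By the common placement, which was not checked for this gene, the Stag3 positions lay far upstream, from base -819 to base -267. On that placement they bear on no cytosine at the start itself. In RefSeq, Stag3 overlaps Gpc2 and Gal3st4, and the sources used here do not say whether these cytosines belong to the control region of a neighbour. Its 7 positions under 10% were at 1.26% ± 0.304 in the exercised and 1.44% ± 1.83 in the sedentary samples (SD, n = 3 each). At base -490 the exercised samples had 0 methylated reads of 15, 20 and 34, which allows levels of up to 20%, 15% and 8.82% when a count of 0 is taken to allow 3 reads (upper 95% Wilson limits 20.4%, 16.1% and 10.2%). The cytosines at bases -450 and -267 were above 90%.

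**Figure D3:**
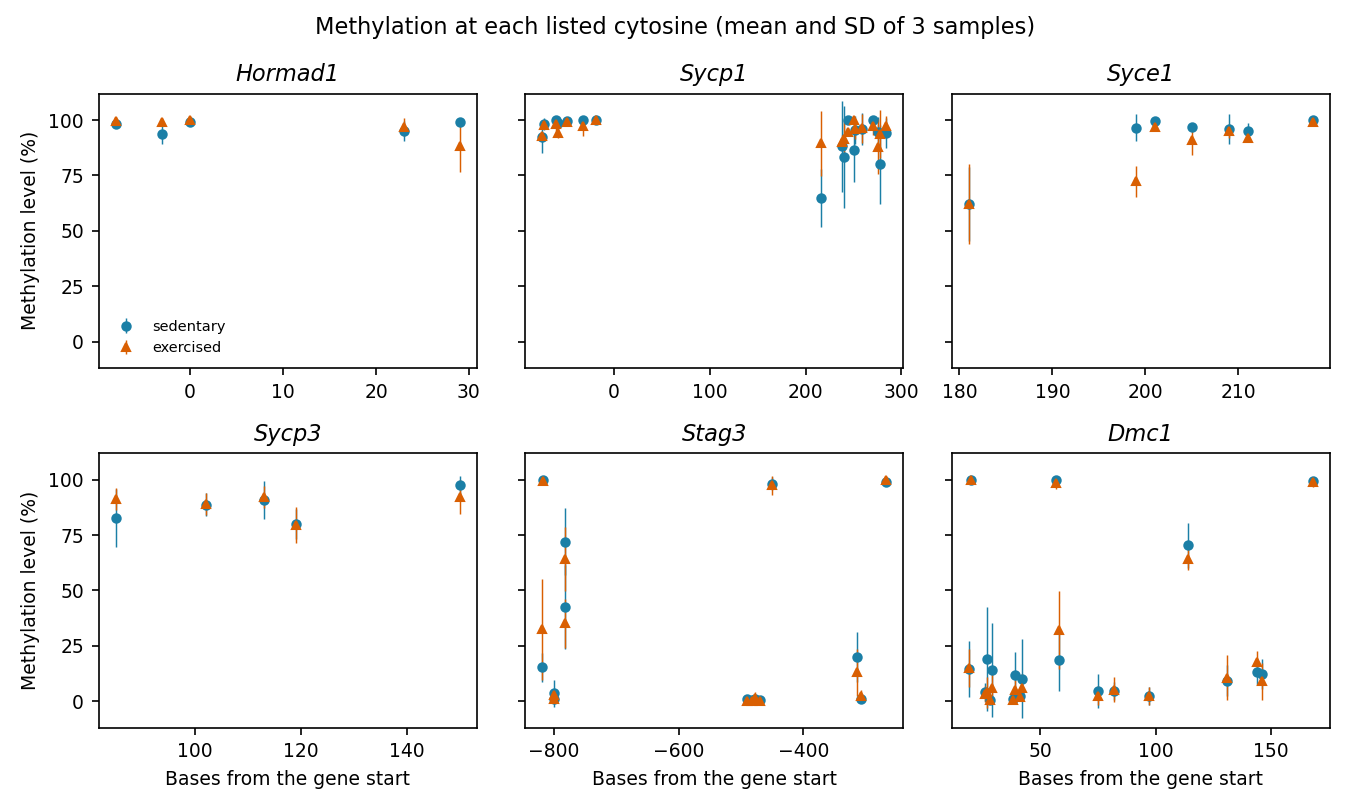
Methylation level (percent, y axis) of each listed cytosine against its distance in bases from the gene start (x axis) in sedentary (blue circles) and exercised (orange triangles) samples; points are means and bars SDs of 3 samples. Hormad1, Sycp1, Syce1 and Sycp3 are methylated at the listed cytosines, whereas in Dmc1 and Stag3 17 of 34 cytosines are under 10% and 6 above 90%.

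No meiotic gene region differed between exercised and sedentary muscle beyond the threshold. In edgeR's quasi-likelihood test 0 of the 6 had an adjusted p under 0.05 and 0 an unadjusted p under 0.05. Over all 10021 regions 0 (0.00%) passed with adjustment and 237 (2.37%) without. At so low a share, a count of 0 of 6 cannot tell whether the members differ from other regions. Of the 6 differences 3 were positive and 3 negative, with a median of 0.0640 points beside 0.390 points over all regions.

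Syce1 had the largest difference of the 6. Its mean was 87.1% ± 1.60 with exercise and 92.7% ± 3.56 without (SD, n = 3 each), giving -5.59 points (SE 2.25, edgeR adjusted p = 1.0, unadjusted p = 0.0527). All 3 exercised samples lay below all 3 sedentary samples, by a narrow margin to sedentary sample 2. Without sedentary sample 2 the difference was -7.58 points (edgeR adjusted p = 1.0, unadjusted p = 0.00205). Leaving out sedentary sample 1 gave -4.15 points, exercised sample 3 gave -4.67 and sedentary sample 3 gave -5.05 (edgeR adjusted p = 0.9997, 0.813 and 0.9995, unadjusted p = 0.143, 0.140 and 0.127). limma on the same 6 samples gave unadjusted p = 0.0273 on levels and 0.0192 on M values, with adjusted p = 1.0 in both.

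Sycp1 was the other region whose groups did not overlap, in the opposite direction. It stood at 95.8% ± 0.563 against 93.6% ± 2.39 (SD, n = 3 each), a difference of 2.27 points (SE 1.42, edgeR adjusted p = 1.0). Without sedentary sample 3, the library of lowest depth, this was 0.891 points, and at positions covered at least 20 times in every sample it was 3.70 points over 4 positions, where the groups overlapped. Groups did not overlap in 727 of the 10021 regions (7.25%), with the exercised samples higher in 4.91% and lower in 2.35%, beside 1 of 6 members each way.

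The other 4 genes differed by less than their spread. Sycp3 differed by 0.340 points (SE 3.57), Dmc1 by -1.14 (SE 2.26), Stag3 by 1.25 (SE 3.68) and Hormad1 by -0.212 (SE 1.31), each with an edgeR adjusted p of 1.0. Their direction changed when single samples were left out, so that no direction can be given for them. A p-value above the threshold does not show that the levels were the same.

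**Figure D4:**
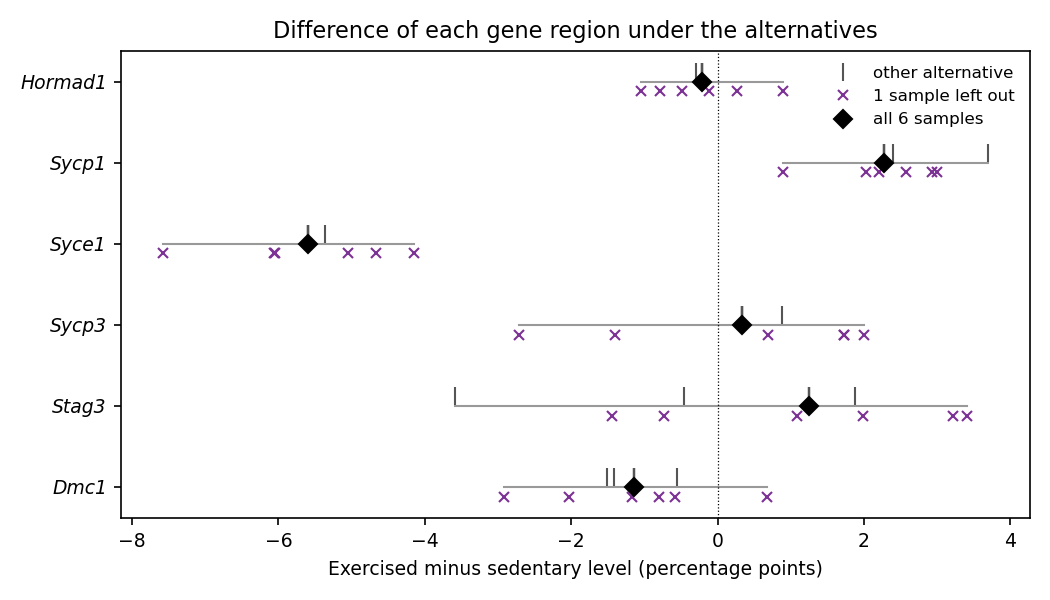
Exercised minus sedentary level in percentage points (x axis) of each gene region (y axis) with all 6 samples (black diamond), with 1 sample left out (purple crosses) and under the other alternatives (grey ticks). Only Syce1, at -5.59 points, and Sycp1, at 2.27 points, stay on 1 side of 0 throughout.

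Single cytosines were tested in the same way, and 0 of the 67 member positions that could be tested passed with adjustment, as did 0 of all 253960 (0.00%). Without adjustment 3 of 67 had an edgeR p under 0.05, beside 3.32% of all positions. The first was in Syce1, 199 bases after the start (chromosome 7, position 147973554). There 20 of 30, 49 of 61 and 26 of 37 reads were methylated in the exercised samples, or 66.7%, 80.3% and 70.3%, with 95% Wilson intervals of 48.8% to 80.8%, 68.7% to 88.4% and 54.2% to 82.5%. The sedentary samples had 26 of 26, 52 of 58 and 23 of 23 reads methylated, or 100%, 89.7% and 100%, with intervals from 87.1%, 79.2% and 85.7% upward. The exercised samples were all lower, by 24.1 points in the mean (edgeR adjusted p = 0.919, unadjusted p = 0.0207). Leaving out 1 sample gave -28.1 to -21.3 points. At the cytosine 2 bases away, position 201, the levels were 96.8% ± 0.401 and 99.4% ± 0.995 (SD, n = 3 each). Base 205 differed by -5.63 points, and the remaining Syce1 positions by -3.40 to -0.148. The exercised mean was thus lower at every Syce1 position, by most at base 199.

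The second was in Sycp1, 251 bases after the start (chromosome 3, position 102739772). All reads were methylated in the exercised samples and in sedentary sample 1, against 89.1% and 71.1% in sedentary samples 2 and 3. The difference of 13.3 points (edgeR adjusted p = 0.919, unadjusted p = 0.00491) was 5.45 points without sedentary sample 3, and the groups overlapped.

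The third was in Hormad1, 29 bases after the start (chromosome 3, position 95363628), the last capital CG of its printed window. The exercised samples stood at 75%, 95.4% and 94.7% and the sedentary samples at 100%, 97.4% and 100%. The difference of -10.7 points (edgeR adjusted p = 0.919, unadjusted p = 0.0458) was -4.06 points without exercised sample 1, which was the lowest.

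Groups did not overlap at 5 of the 67 positions, beside 6.16% of all positions in either direction. At all 5 the exercised samples were lower, a direction found at 2.15% of all positions. Of these 5, 3 were the neighbouring Syce1 cytosines at bases 199, 201 and 205, which share reads, and the others were Sycp1 base 244 and Hormad1 base 29. The remaining cytosines named by rule, with the smallest p in their region, differed by -15.0 to 24.7 points and had edgeR adjusted p between 0.919 and 1.0. The largest of these was Sycp1 base 216, at 95.7%, 72.7% and 100% against 69.2%, 75% and 50%, where sedentary sample 2 lay above exercised sample 2. Dmc1 base 27 stood at 4.04% ± 6.998 against 19.1% ± 23.6, and Stag3 base -819 at 32.4% ± 23.0 against 15.3% ± 6.57 (SD, n = 3 each), with overlapping groups at both.

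Per the authors' deposited table, 3 of the 67 member positions had an unadjusted p under 0.05, beside 3.13% of all positions. These were Syce1 base 199 (-24.1 points, p = 0.0107), Syce1 base 201 (-2.59 points, p = 0.0140) and Sycp1 base 244 (-5.35 points, p = 0.00404), all lower in the exercised samples per the authors' deposited table. The first is in the authors' strong class of lower methylation, which holds 314 positions (0.124%) in all.

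Other meiotic genes ranged from 10.04% to 95.6%. Of 59 listed names 16 had a region with at least 3 positions. Of these, 3 stood at 80% or more, namely Stra8, the retinoic acid target that starts meiosis (95.6%), Majin, which ties telomeres to the nuclear envelope (88.8%), and Msh4, a crossover factor of the MutS family (87.9%). Meioc stood at 51.1% and the other 12 between 10% and 50%, lowest for Hsf2bp (10.04%), Mei4, a factor of break formation (12.8%), and Ythdc2, an RNA helicase of meiotic entry (13.3%). Their median level was 21.6%, beside 22.0% over all regions. Between groups 8 were higher and 8 lower in exercised samples, with 0 past the threshold and 2 at an unadjusted edgeR p under 0.05, beside 2.37% of all regions. These were Stra8, at 98.1% ± 1.06 against 93.2% ± 4.56 over 3 positions, and Hsf2bp, at 9.24% ± 0.265 against 10.8% ± 0.663 (SD, n = 3 each). The groups of Stra8 overlapped and those of Hsf2bp did not.

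Genes that do related work in dividing body cells were methylated at the usual low level. All 8 measured regions of this list lay between 10% and 50%, with a median of 21.2%. Stag1 and Stag2, the somatic paralogs of Stag3, stood at 28.2% and 33.3%. The cohesin subunits Rad21 and Smc3 stood at 15.8% and 17.2%. Stag1 differed by 4.49 points between groups, at 30.4% ± 1.32 against 25.9% ± 3.71 (SD, n = 3 each), with groups that did not overlap and an edgeR adjusted p of 1.0. It was the 1 region of 8 whose groups did not overlap, beside 7.25% of all regions. The Dmc1 level of 24.8% and the Stag3 level of 37.2% also lay between 10% and 50%, and those of Hormad1, Sycp1, Syce1 and Sycp3 above it. These levels include stand-alone positions. Without them the exercised and sedentary means were 36.3% and 34.4% for Stag3 and 6.04% and 6.59% for Dmc1. They were 25.9% and 19.3% for Stag1, 18.9% and 13.7% for Stag2, 1.33% and 1.34% for Rad21, and 2.74% and 2.08% for Smc3. Rad51b, of the same list, held 0 stand-alone positions and stood at 42.0% and 33.6%.

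Regulators known to hold germline genes off in body cells were measured in 8 regions, at 16.8% to 27.8%, among them E2f6, a repressor of the E2F family (20.1%), Pcgf6 (22.5%), Max (18.7%) and Dnmt3b, a de novo DNA methyltransferase (19.5%). None passed the threshold in edgeR, and 1 of 8 had an unadjusted p under 0.05, beside 2.37% of all regions. This was Dnmt1, the maintenance methyltransferase, at 33.8% ± 1.71 against 21.8% ± 6.40 (SD, n = 3 each). It was 12.1 points higher in exercised samples, and 4.25 points higher once stand-alone positions were removed.

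Binding letters of 2 of these regulator families were searched in the RefSeq promoter windows. The E-box CACGTG, which reads the same on both strands and is bound by dimers of Max, was found in the windows of 4 of the 6 genes, and in 7.2% of all 32851 windows of that length. The E2F core TCCCGC, searched on both strands, was found in 5 of the 6, beside 6562 of all 32851 windows. The letters CGCGCG, also searched, were found in the windows of Sycp1 and Stag3, and in 11.3% of all windows. All these letters contain a CpG and the windows of the 6 genes are rich in CpGs, so all windows are not a like background. A match is a description of letters and not evidence of binding. The E-boxes, in capitals with their neighbouring bases, 5′ to 3′ on the strand of the gene, are shown because they sit close to the methylated CpGs of Hormad1 and Sycp1.
Sycp1, bases -94 to -89: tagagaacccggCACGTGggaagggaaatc
Sycp3, bases -64 to -59: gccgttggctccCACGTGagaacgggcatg
Sycp3, bases -43 to -38: acgggcatggagCACGTGctaggaggcggg
Stag3, bases -170 to -165: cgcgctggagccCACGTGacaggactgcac
Hormad1, bases -57 to -52: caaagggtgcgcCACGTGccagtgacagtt
Hormad1, bases -20 to -15: atgcgcactgcgCACGTGctgaccggagcg
The second Hormad1 E-box ends 15 bases before the start, next to the first measured CpG at base -8, which was methylated at nearly all reads. The E-box CpGs themselves were not among the listed positions. Syce1 and Dmc1 had 0 E-boxes in their windows. The windows held 14 (Syce1) to 30 (Stag3) CpGs, beside a median of 7 over all windows, so both the methylated and the less methylated genes have more CpGs than most.

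Over the whole table, the summed coverage was lowest in sedentary sample 3 (9153526 calls) and highest in sedentary sample 2 (18656340), and each position was covered by at least 10 reads in every sample. The tissue label could not be checked by RNA. Of 12 skeletal muscle markers 2 had a region with at least 3 positions, Pvalb at 0.370% and Acta1 at 72.3%, each over 3 positions. The 4 measured germ cell markers were Mael at 93.5%, Ddx4 at 69.7%, Tdrd1 at 69.6% and Dazl at 19.6%. Of these, 2 had an unadjusted edgeR p under 0.05, beside 2.37% of all regions, and 0 an adjusted one. Both were lower in exercised samples, Tdrd1 at -14.0 points (edgeR adjusted p = 0.451), with groups that did not overlap, and Mael at -4.98 points (edgeR adjusted p = 1.0). Marker regions of endothelial, leukocyte, adipocyte and fibroblast genes (9 in all) lay between 15.1% and 74.7% with 0 past the threshold, and the part of a changed cell mixture in any difference was not tested.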

How the data were processed

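The authors deposited 1 table for the series, with the methylated fraction (0 to 1) of each cytosine and the count of reads covering it in each of the 6 samples, beside the difference of group means and, per position, an unadjusted p-value and a class. That deposited p-value could be recomputed from the 6 fractions assuming equal variances. Bismark 0.7.7, Bowtie 0.12.9, cutadapt 1.0, Trim Galore 0.2.5 and mm9 are listed, without roles, per the submitters' processing notes. Fraction times coverage was whole within 0.00236 of a read and gave methylated counts. All coordinates of regions and positions are those of the deposited table. Symbols (10652 of 10755 transcripts) and promoter windows came from RefSeq GRCm38.p6, and no coordinate was converted. Whether cytosines lie in exons or introns was not analysed here.

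Methylated and unmethylated counts, summed per region with at least 3 positions or per position, were tested over the whole table with edgeR 4.0.16 (R 4.3.3) by quasi-likelihood, with a term per sample, a group effect on the methylated ones, untrended dispersions and a Benjamini-Hochberg threshold of 0.05. The fit was tested on simulated data in which only units of intermediate level were shifted. How well it finds a change at higher or lower levels was not tested. A region's level is its methylated share of reads, and differences are exercised minus sedentary. Reads carry no molecular identifiers in the labels, so intervals cover counting error only. Mean chi-square per position between samples was at least 1.64, and none was treated as a duplicate. Alternatives were a replicate block, each sample left out, a coverage of 20, removal of the top 0.1% of coverage or of stand-alone positions, limma 3.58.1 on levels and on M values (offset 2), merged strands, at least 5 positions, and plain means. The members and lists were chosen with earlier results of these data known. Named by rule were all 6 members, the 3 positions of smallest p in each region, per list the 3 highest, the 3 lowest and the 2 of smallest p, and the nearest region; other genes are named for their role, after their values were seen. Some genes that the rule would name are not reported here.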

Additional observations from a re-analysis of the deposited data

How the results depend on the processing

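Regions passing the adjusted threshold numbered 0 in every alternative. Single positions numbered 0 except with strands merged, where 1 passed, a CpG in the Grb10 region (chromosome 11, position 11936714, -9.71 points, edgeR adjusted p = 0.00615), which is no member. Unadjusted region counts of 237 became 601 without exercised sample 3 and 455 without stand-alone positions. Unadjusted position counts of 8426 became 4440 without exercised sample 2, 4476 without exercised sample 3, 5081 without stand-alone positions and 1852 with the replicate block. Same-numbered samples had correlations of deviations over regions of 0.0190, -0.219 and -0.111, beside -0.101 to 0.221 for samples of different numbers. Deviations were taken within groups of 3 and depend on each other, so these values cannot decide whether same-numbered samples were paired. The replicate block gave 204 unadjusted regions and changed no adjusted call. Leaving out 1 sample gave differences of -7.58 to -4.15 points for Syce1, 0.891 to 2.99 for Sycp1, -2.72 to 2.01 for Sycp3, -2.92 to 0.671 for Dmc1, -1.45 to 3.41 for Stag3 and -1.05 to 0.899 for Hormad1. The sign for Sycp3 changed without exercised sample 2 or sedentary sample 2, for Dmc1 without sedentary sample 3, and for Stag3 and Hormad1 without exercised sample 1 or sedentary sample 3. Stag3 also changed sign at a coverage of at least 20 reads (-3.59) and as the plain mean of positions (-0.463); the cause was not tested. Among single cytosines, Sycp3 base 113 ranged from -2.69 to 5.88 points, and with strands merged Dmc1 base 57 was at 3.43 and the Stag3 cytosine at base -818 at 8.34, each then averaged with its less methylated partner. Single positions had counting intervals of up to 51.9 points, and some named cytosines had too few reads, or no unmethylated or methylated reads left, for a value under 1 or more alternatives (Dmc1 bases 58, 57 and 27, Hormad1 base 0, Sycp1 bases 244 and 216, Stag3 bases -819, -818 and -490).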
